A study of Mus musculus with 16 samples.

Results

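Heat shock and cytosolic chaperone genes were followed in mesenchymal stromal cells (mSC) of mouse hindlimb muscle after an injection of calcitonin gene-related peptide (CGRP), a neuropeptide released by sensory nerve endings. The 35 genes were taken by symbol from a list of heat shock factors, chaperones and cochaperones, and each had to have at least 10 reads in 4 or more libraries. All 35 met this and all 35 were among the 13949 genes tested, out of 52997 symbols in the count table. They were ordered in 7 classes: 2 heat shock factors, 7 cytosolic HSP70 and HSP110 chaperones, 6 partners of HSP70, 7 genes of HSP90 and its cochaperones, 3 mitochondrial chaperones, 3 small heat shock proteins and 7 subunits of the CCT chaperonin.

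Molecular chaperones bind unfolded or newly made proteins and help them to fold, to assemble or to be degraded. HSP70 and HSP90 work in cycles of ATP hydrolysis that cochaperones start, stop and direct, while the ring-shaped CCT complex encloses actin, tubulin and other substrates. A part of these genes is induced by heat and other proteotoxic stress through the transcription factor HSF1, which binds inverted repeats called heat shock elements, and another part is expressed constitutively and follows the rate of protein synthesis. Muscle mSC, also called fibro-adipogenic progenitors, make extracellular matrix and signals for muscle repair.

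The donors of all cells were C57BL/6 mice, 8 weeks old, injected intraperitoneally with CGRP or with PBS as the vehicle. Their mSC were sorted 4 h or 8 h after the injection, 1000 cells per library. The labels give neither the dose of CGRP nor the sort gate. The 4 groups were thus PBS 4 h, CGRP 4 h, PBS 8 h and CGRP 8 h, with 4 replicates each. The labels do not state how many mice stand behind a replicate, so p-values measure only the spread between these samples, which may be technical.

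Heat shock elements are shown first, as the motif through which HSF1 acts on part of these genes. A search in the RefSeq promoter windows (GRCm38.p6, 250 bases before to 50 bases after a start) used 2 inverted units, written GAANNTTC or TTCNNGAA, each of which reads the same on both strands. It also used 3 inverted units, written GAANNTTCNNGAA or its reverse complement, a match of which always contains matches of the shorter motif. The stretches below are printed 5′ to 3′ on the gene's strand, with matches of 2 units in capitals: 30 bases upstream of Hspe1 that hold 3 overlapping matches, 150 bases of 2 genes counted among the classic HSF1 targets (Hspa1a and Hspb1), and 150 bases of 2 CCT subunits and Hspa4, of which Cct7 and Hspa4 hold no match. They lie at chr1:55088053-55088082 (plus strand), chr17:34972157-34972306 (minus), chr5:135887769-135887918 (plus), chr10:117063376-117063525 (minus), chr6:85451355-85451504 (plus) and chr11:53300480-53300629 (minus), in the order printed. The Hspe1 stretch lies between the start of Hspe1 and the downstream of the annotated starts of Hspd1, which is transcribed in the opposite direction, and inside an untranslated exon of the longer Hspd1 transcript. The others end at the base before an annotated start and lie outside annotated exons.
Hspe1: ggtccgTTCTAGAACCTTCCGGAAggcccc
Hspa1a: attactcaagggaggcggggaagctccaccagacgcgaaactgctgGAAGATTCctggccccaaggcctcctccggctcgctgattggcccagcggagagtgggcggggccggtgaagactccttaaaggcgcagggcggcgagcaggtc
Hspb1: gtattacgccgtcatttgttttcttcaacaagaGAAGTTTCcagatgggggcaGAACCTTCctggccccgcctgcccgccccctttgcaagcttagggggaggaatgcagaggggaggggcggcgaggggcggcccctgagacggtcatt
Cct2: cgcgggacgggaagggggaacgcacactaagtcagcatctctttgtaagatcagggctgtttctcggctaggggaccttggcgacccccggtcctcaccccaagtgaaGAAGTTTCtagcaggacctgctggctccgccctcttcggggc
Cct7: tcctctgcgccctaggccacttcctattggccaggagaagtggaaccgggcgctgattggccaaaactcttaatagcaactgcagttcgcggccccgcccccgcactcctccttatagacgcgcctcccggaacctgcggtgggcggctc
Hspa4: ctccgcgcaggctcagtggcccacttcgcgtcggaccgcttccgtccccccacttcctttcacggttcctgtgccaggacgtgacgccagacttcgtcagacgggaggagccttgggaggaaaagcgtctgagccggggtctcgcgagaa

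Of the 35 genes, 28 had such a window, and Hsf1, Hspa8, Hsp90aa1, Hsp90ab1, Hspa9, Cryab and Cct4 had none. Matches of 2 units occurred in 15 of the 28 (53.6%), against 17% of the 27025 genes with a window. Matches of 3 units occurred in 5 of the 28 (17.9%), against 0.662%: Hsph1, Dnajb6, Chordc1, Hspd1 and Hspe1. Hspd1 and Hspe1 share theirs, which for Hspd1 lies before the downstream start. Of the 6 CCT subunits with a window, Cct2 and Cct5 held 2 units and none held 3. Each of these has a pair of annotated starts, and the match lies before only 1 of them, for Cct2 the downstream one, inside the gene. Among the members that rose at 4 h, as described below, 5 of 13 with a window held 2 units (38.5%). Among the others 10 of 15 did (66.7%). Matches of 3 units went the other way, in 3 of the 13 (23.1%) and 2 of the 15 (13.3%). These counts describe letters in the window and not binding.

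The libraries held 6373713 to 10011920 counts, and levels are given as CPM (counts scaled to a common library size) after TMM scaling. The mSC markers Pdgfra and Dcn were at 501 to 752 and at 15562 to 23026 CPM in the 16 libraries. Ptprc, the pan-leukocyte gene, reached at most 1.22 CPM, and Myf5 of satellite cells was at 0 in all 16 libraries. Some markers of other types were detected throughout: Acta1 of muscle fibres at 45.6 to 150 CPM, Tek of endothelium at 75.1 to 143 CPM, and Cspg4 and Des of mural cells at 22.3 to 133 and 35.9 to 76.4 CPM. The other 6 endothelial markers, Pecam1 and Cdh5 among them, were each at most at 2.51 CPM. In bulk samples, fewer cells of a type and less RNA per cell cannot be told apart. Replicate 1 of CGRP 4 h stood apart for the HSP90 genes. It was the highest of its group in 17 of the 35 members. Its 15 chaperones of the endoplasmic reticulum (ER) summed to 12393 CPM, against 5666 to 6970 CPM in the other 3 replicates, and its mSC markers summed to 42169 CPM, the lowest of all 16 libraries. The main results that rest on it are given with and without it.

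At 4 h, 18 of the 35 genes rose after CGRP and 1 fell. Of all genes tested, 7.84% rose and 8.37% fell. The 35 log2 fold changes had a median of 0.45, with 33 above 0, while the median of all genes was −0.00. All 7 CCT subunits, all 3 mitochondrial chaperones, 3 of 7 HSP70 and HSP110 genes, 4 of 7 HSP90 genes and 1 of 2 factors rose. None of the 6 partners of HSP70 and none of the 3 small heat shock proteins did, and the gene that fell was the small heat shock protein Cryab. In 17 of the 35 genes all 4 CGRP libraries lay above all 4 PBS libraries, which held for 8.95% of all genes.

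At 8 h, 13 of the 35 genes rose and 0 fell, against 5% and 3.67% of all genes. The median log2 fold change was 0.35, with 28 of 35 above 0, and that of all genes was −0.02. All 13 had also risen at 4 h: the 7 CCT subunits, the 3 mitochondrial chaperones, Hspa8, Hspa4 and Hsp90aa1. In 17 genes all 4 CGRP libraries lay above all 4 PBS libraries, against 8.08% of all genes. Markers of other cell types also moved at 8 h: the 11 myofibre markers summed to 190 to 299 CPM after PBS and 128 to 178 CPM after CGRP, and the 7 endothelial markers, mostly Tek, to 109 to 131 and 78.2 to 106 CPM. Their part in the chaperone changes was not tested. For 0 fallen genes, edgeR gave 0 at an unadjusted p under 0.05 and DESeq2 called 0. The 8 h count depended on single libraries: it was 5 without CGRP replicate 1, 7 without CGRP replicate 4 and 8 without PBS replicate 4.

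**Figure D1:**
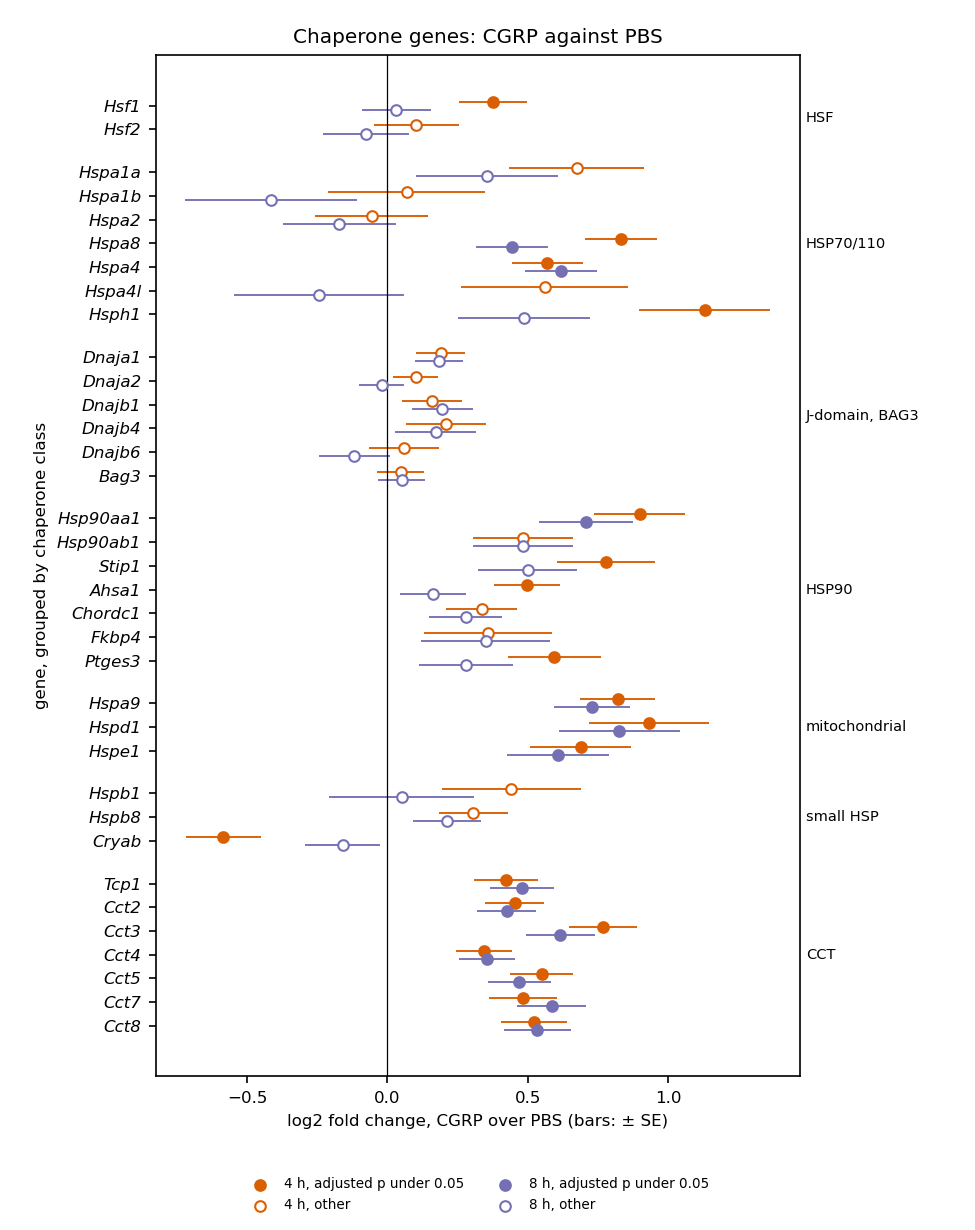
Log2 fold change of CGRP over PBS for the 35 genes by class at 4 h (orange) and 8 h (purple), with bars for ± SE from 4 against 4 libraries and filled points at an adjusted p under 0.05. The CCT and mitochondrial classes are filled at both times, and none of the 6 genes labelled J-domain, BAG3 is filled at either time.

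The CCT chaperonin is built from 8 different subunits, of which 7 were members. Cct3, the gamma subunit (chr3:88297116-88321767, mm10), was at 216, 220, 235 and 212 CPM in the PBS 4 h libraries and at 414, 347, 327 and 416 CPM in the CGRP 4 h libraries. The groups did not overlap, and the log2 fold change was 0.77 ± 0.12 (SE, n = 4 per group, adjusted p = 0.000219). By 8 h the libraries were at 187, 191, 206 and 184 CPM after PBS and at 358, 235, 233 and 351 CPM after CGRP, a log2 fold change of 0.62 ± 0.12 (adjusted p = 0.00379). The CGRP 8 h libraries again lay above all PBS libraries, but fell into 2 high ones (replicates 1 and 4) and 2 lower ones.

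Cct5, the epsilon subunit, had the highest level of the class per length, at 113 CPM per kb of annotated exon over all 16 libraries. It rose by 0.55 ± 0.11 at 4 h (adjusted p = 0.00171) and by 0.47 ± 0.11 at 8 h (adjusted p = 0.0114). Cct8, the theta subunit, was next at 101 CPM per kb and rose by 0.52 ± 0.12 and by 0.53 ± 0.12. The log2 fold changes of all 7 spanned 0.34 (Cct4) to 0.77 (Cct3) at 4 h and 0.35 (Cct4) to 0.62 (Cct3) at 8 h. In 6 of the 7 the groups did not overlap at either time, Cct4 being the exception. Cct4 was at 203, 220, 214 and 200 CPM after PBS at 4 h and at 275, 272, 219 and 297 CPM after CGRP, with replicate 3 inside the PBS range.

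Cct6a, the zeta subunit and not a member, rose by 0.59 ± 0.12 at 4 h (adjusted p = 0.0022) and by 0.70 ± 0.12 at 8 h (adjusted p = 0.0012). The 6 prefoldin genes, whose complex hands unfolded actin and tubulin to CCT, gave 0 calls at either time. Of Cct6a and the prefoldin genes together, 3 were higher and 1 lower at an unadjusted p under 0.05 in edgeR at 4 h, and 2 were higher at 8 h, while DESeq2 called 1 at each time. At 8 h without CGRP replicate 1, Tcp1, Cct2, Cct4 and Cct5 missed the threshold, with log2 fold changes of 0.42, 0.36, 0.29 and 0.35. Over the 8 fits that left out 1 library, the 8 h call held in 3 for Cct4, 5 for Cct2, 6 for Tcp1 and 7 for Cct5. It held in all 8 for Cct3, Cct7 and Cct8. Without replicate 1 of all 4 groups, a setting chosen after seeing the data, 0 of the 7 were called at 8 h. At 4 h, Tcp1 and Cct4 missed it without CGRP replicate 4 (0.38 and 0.30), and Cct4 also without PBS replicate 1 (0.34). Exons of Tcp1, Cct7 and Cct8 overlap exons of neighbours on the opposite strand (571 bases with Acat3, 214 with Pradc1, 192 with Usp16), and the libraries do not mark strand.

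The mitochondrial chaperones fold proteins imported into the matrix: Hspa9 encodes the mitochondrial HSP70, Hspd1 HSP60 and Hspe1 its lid HSP10. Hspa9 was at 165, 181, 194 and 161 CPM in the PBS 4 h libraries and at 326, 286, 270 and 356 CPM in the CGRP 4 h libraries. At 8 h it was at 156, 163, 155 and 168 CPM after PBS and at 356, 233, 193 and 284 CPM after CGRP. The groups did not overlap at either time, with log2 fold changes of 0.82 ± 0.13 (adjusted p = 0.000356) and 0.73 ± 0.14 (adjusted p = 0.00258).

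Hspd1 was at 78.2, 87.7, 93.8 and 76.6 CPM after PBS at 4 h and at 183, 149, 122 and 189 CPM after CGRP. The 8 h libraries were at 60.9, 71.8, 84.9 and 68.8 CPM after PBS and at 176, 90.8, 85.7 and 156 CPM after CGRP. No CGRP library lay below a PBS library of its time, but at 8 h the lowest CGRP library was close to the highest PBS library. The log2 fold changes were 0.93 ± 0.21 (adjusted p = 0.00812) and 0.83 ± 0.22 (adjusted p = 0.0285).

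Hspe1 rose by 0.69 ± 0.18 at 4 h (adjusted p = 0.0124) and by 0.61 ± 0.18 at 8 h (adjusted p = 0.0432). At 8 h its CGRP libraries were at 64.1, 37.1, 34.1 and 63.3 CPM and overlapped the PBS libraries at 35.2, 33.2, 29.8 and 31.6 CPM. Without CGRP 8 h replicate 1 the log2 fold changes at 8 h were 0.56 for Hspa9 (adjusted p = 0.0076), 0.63 for Hspd1 (adjusted p = 0.0908) and 0.46 for Hspe1 (adjusted p = 0.169). Over the 8 fits that left out 1 library, the 8 h call held in 8 for Hspa9, 3 for Hspd1 and 2 for Hspe1. Hspd1 and Hspe1 also missed the threshold at 8 h when edgeR fitted only the libraries compared (adjusted p = 0.0957 and 0.0726). Hspe1 missed it with upper-quartile scaling too (adjusted p = 0.059). Hspd1 and Hspe1 lie head to head on chromosome 1 (chr1:55077835-55088243 on the minus strand and chr1:55088132-55091307 on the plus strand), and 112 bases of their annotated exons overlap. Of 8 other mitochondrial chaperones and proteases, 1 rose at 4 h, the matrix protease gene Clpp (0.44 ± 0.12, adjusted p = 0.0104), and 0 were called at 8 h, where 3 had an unadjusted p under 0.05 in edgeR and DESeq2 called 0. Over all genes tested, 7.84% rose at 4 h and 5% at 8 h.

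Of the cytosolic HSP70 and HSP110 genes, Hspa8, Hspa4 and Hsph1 rose at 4 h, and Hspa8 and Hspa4 at 8 h. Hspa8, the constitutive HSP70 (chr9:40800984-40810087), was at 499, 549, 507 and 574 CPM in the PBS 4 h libraries and at 1147, 881, 718 and 1046 CPM in the CGRP 4 h libraries. At 8 h it was at 466, 511, 507 and 497 CPM after PBS and at 770, 606, 529 and 790 CPM after CGRP. All CGRP libraries lay above all PBS libraries at both times, and the log2 fold changes were 0.83 ± 0.13 (adjusted p = 0.000184) and 0.44 ± 0.13 (adjusted p = 0.035). The 8 h call of Hspa8 was lost in 6 of 8 fits that left out 1 library, with log2 fold changes of 0.37 (without CGRP replicate 4) to 0.47.

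Hspa4 and Hsph1 encode nucleotide exchange factors of the HSP110 family, which release ADP from HSP70. Hspa4 was at 109, 74.6, 110 and 92.7 CPM after PBS at 4 h and at 117, 138, 141 and 177 CPM after CGRP. It rose without overlap by 0.57 ± 0.13 at 4 h (adjusted p = 0.00397) and by 0.62 ± 0.13 at 8 h (adjusted p = 0.00488). Hsph1 was at 60.6, 58.6, 50.1 and 56.5 CPM after PBS at 4 h and at 175, 107, 72.6 and 139 CPM after CGRP. Its log2 fold change of 1.13 ± 0.23 at 4 h (adjusted p = 0.00431) was the highest of the 35, with CGRP libraries that ranged widely above the PBS libraries. Without CGRP 4 h replicate 1 it was 0.93 (adjusted p = 0.00887). At 8 h it was 0.49 ± 0.23 (adjusted p = 0.237), with overlapping groups.

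The stress-inducible HSP70 genes were not called at either time in the main fit. Hspa1a (chr17:34969190-34972156) was at 65.8, 54.7, 42.2 and 65.6 CPM after PBS at 4 h and at 109, 83.8, 69.7 and 102 CPM after CGRP, without overlap. The log2 fold change of 0.68 ± 0.24 had an adjusted p of 0.0709 in edgeR, and DESeq2 called it (0.68, adjusted p = 0.0188). In edgeR it was called with only the libraries compared (0.67, adjusted p = 0.0143) and without CGRP 4 h replicate 3 (0.80, adjusted p = 0.0449). It stayed uncalled in 7 of 8 fits that left out 1 library and in 5 of 7 other alternatives. At 8 h the groups overlapped, at 17.9, 34.4, 44.7 and 23.5 CPM after PBS and 46.7, 27.8, 41.2 and 37.6 CPM after CGRP (0.36 ± 0.25, adjusted p = 0.454).

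Its near-identical neighbour Hspa1b was far lower, at 2.15 to 8.23 CPM over all libraries (16 to 81 reads), with log2 fold changes of 0.07 ± 0.28 and −0.41 ± 0.31. The promoter windows of Hspa1a and Hspa1b are identical at 296 of 300 positions. Reads that fit both copies could be assigned to either or dropped, so the values of this pair are uncertain. Exons of Hspa1a also overlap 564 bases of Gm20481 on the opposite strand, and the libraries do not mark strand. Hspa2 (−0.06 ± 0.20 and −0.17 ± 0.20) was not called, and neither was Hspa4l, another HSP110 gene, which was at 34.1 CPM in CGRP 4 h replicate 1 and at 11.6 to 12.9 CPM in the other 3. Its log2 fold change at 4 h was 0.56 ± 0.30, and 0.04 without that library.

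The partners of HSP70 gave 0 calls in edgeR at 4 h and at 8 h. At each time 1 of the 6 had an unadjusted p under 0.05, and DESeq2 called 0. The class holds J-domain proteins, which load substrates onto HSP70 and start its ATPase, and BAG3, an exchange factor that directs clients to autophagy. Dnajb1, the J-domain partner most strongly tied to the heat shock response, was at 80.4, 88.9, 77.3 and 86.5 CPM after PBS at 4 h and at 89.9, 96.2, 71.6 and 115 CPM after CGRP. These groups overlapped, with a log2 fold change of 0.16 ± 0.11 (adjusted p = 0.357). Its 8 h libraries were at 60.9, 68.5, 64.6 and 62.1 CPM after PBS and at 68.7, 74.7, 72.2 and 77.7 CPM after CGRP, a small shift without overlap (0.20 ± 0.11, adjusted p = 0.308).

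Bag3 was at 127 to 137 CPM after PBS and 129 to 155 CPM after CGRP at 4 h, with a log2 fold change of 0.05 ± 0.08, and 0.05 ± 0.08 at 8 h. Dnaja2, the member of the class with the highest level per length (82.7 CPM per kb), had log2 fold changes of 0.10 ± 0.08 and −0.02 ± 0.08, neither called. The smallest p of the class at 4 h was that of Dnaja1, with 0.19 ± 0.09 (adjusted p = 0.143). Exons of Dnaja1 overlap 608 bases of Smu1 and 249 of Gm6297 on the opposite strand. The 6 log2 fold changes spanned 0.05 (Bag3) to 0.21 (Dnajb4) at 4 h and −0.12 (Dnajb6) to 0.20 (Dnajb1) at 8 h. The SE was 0.08 to 0.14 in this class and 0.10 to 0.12 in the CCT subunits at 4 h. Of 24 other HSP70, J-domain and BAG genes tested, 3 rose at 4 h: Dnaja3 (0.46 ± 0.12), the mitochondrial J-domain partner of Hspa9; Dnajb2 (0.49 ± 0.16); and Dnajc2 (0.61 ± 0.16), a J-domain protein at the ribosome. At 8 h 1 rose, Hspbp1 (0.50 ± 0.15), an HSP70 cochaperone. The shares of all genes that rose were 7.84% at 4 h and 5% at 8 h. Without CGRP replicate 1 of the respective time, Dnajb2 (0.34, adjusted p = 0.179) and Hspbp1 (0.39, adjusted p = 0.157) missed the threshold.

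HSP90 matures kinases, steroid receptors and other clients. Hsp90aa1, the inducible cytosolic isoform (chr12:110690605-110702728), was at 64.0, 66.0, 71.0 and 63.2 CPM after PBS at 4 h and at 168, 101, 97.4 and 126 CPM after CGRP. At 8 h it was at 47.2, 50.5, 54.4 and 44.6 CPM after PBS and at 94.6, 74.4, 56.4 and 96.2 CPM after CGRP. No groups overlapped, and it rose by 0.90 ± 0.16 (adjusted p = 0.000934) and by 0.71 ± 0.17 (adjusted p = 0.0125). Without CGRP replicate 1 of the respective time the values were 0.73 (adjusted p = 0.00205) and 0.62 (adjusted p = 0.0535).

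Hsp90ab1, the constitutive isoform, had the highest level per length of all 35 genes, 392 CPM per kb. It was at 1043, 1137, 1127 and 947 CPM after PBS at 4 h and at 2289, 1210, 1165 and 1280 CPM after CGRP. All CGRP libraries lay above all PBS libraries, 3 of them narrowly and replicate 1 by far. The log2 fold change was 0.48 ± 0.18 (adjusted p = 0.0827), and 0.21 without that library (adjusted p = 0.189). The 8 h levels were 868, 909, 998 and 807 CPM after PBS and 1431, 1197, 1037 and 1346 CPM after CGRP, again without overlap (0.48 ± 0.18, adjusted p = 0.115). DESeq2 called it at both times, with log2 fold changes of 0.49 and adjusted p of 0.0211 and 0.0296.

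Of the cochaperones, Stip1 (HOP), which joins HSP70 to HSP90, was at 67.7, 72.9, 78.4 and 68.0 CPM after PBS at 4 h and at 186, 105, 83.1 and 118 CPM after CGRP, and rose by 0.78 ± 0.17 (adjusted p = 0.00537). Ahsa1, which speeds up the HSP90 ATPase, rose by 0.50 ± 0.12 (adjusted p = 0.00523). Ptges3 (p23), which stabilises the closed form of HSP90, rose by 0.60 ± 0.17 (adjusted p = 0.0184), although PBS replicate 3 at 61.8 CPM lay inside the CGRP range of 56.0 to 82.4 CPM. At 8 h these 3 were not called in the main fit, with log2 fold changes of 0.50 ± 0.18, 0.16 ± 0.12 and 0.28 ± 0.17. Replicate 1 of CGRP 4 h was the highest library for all 3, and without it the 4 h values were 0.52 for Stip1 (adjusted p = 0.00657), 0.34 for Ahsa1 (adjusted p = 0.0217) and 0.48 for Ptges3 (adjusted p = 0.0674). Stip1 was called at 8 h by DESeq2 (0.51, adjusted p = 0.0406). In edgeR it was called with no filter (adjusted p = 0.000344) and with only the libraries compared (adjusted p = 0.00967). It stayed uncalled at 8 h in the 4 other alternatives and in all 8 fits that left out 1 library.

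Fkbp4, the immunophilin FKBP52 that acts on steroid receptors with HSP90, was at 100, 103, 130 and 109 CPM after PBS at 4 h and at 243, 112, 98.1 and 112 CPM after CGRP. Apart from replicate 1 the groups overlapped. The log2 fold change of 0.36 ± 0.23 (adjusted p = 0.335) became −0.02 without it. Chordc1 gave 0.34 ± 0.13 (adjusted p = 0.0744) and 0.28 ± 0.13. Of 13 other HSP90 cochaperones, 2 rose at 4 h, the cyclophilin gene Ppid (0.67 ± 0.16) and the phosphatase gene Ppp5c (0.43 ± 0.09). At 8 h 2 rose, Ppp5c (0.27 ± 0.09) and Cacybp (0.54 ± 0.16), both of which missed the threshold without CGRP 8 h replicate 1 (0.28 and 0.40). The shares of all genes that rose were 7.84% at 4 h and 5% at 8 h.

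Small heat shock proteins hold unfolding proteins without using ATP. Cryab (αB-crystallin, chr9:50751325-50756636) was at 112, 102, 116 and 124 CPM after PBS at 4 h and at 106, 63.7, 61.3 and 71.8 CPM after CGRP. It fell by 0.58 ± 0.14 on the log2 scale (adjusted p = 0.00503). CGRP replicate 1 lay within the PBS range and the other 3 far below it, and without that library the log2 fold change was −0.78 (adjusted p = 7.33e-05). At 8 h the groups overlapped (−0.16 ± 0.13, adjusted p = 0.538).

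Hspb2, the divergent neighbour of Cryab whose exons overlap 252 bases of it on the opposite strand, also fell at 4 h (−1.46 ± 0.36, adjusted p = 0.0072), from 4.80 ± 2.35 to 1.72 ± 0.43 CPM (mean ± SD, n = 4). Reads of the overlap cannot be told apart. Cryab is also abundant in muscle fibres and mural cells. The 9 pericyte and smooth muscle markers summed to 131 to 170 CPM in PBS 4 h and 89.2 to 105 CPM in CGRP 4 h, mainly Cspg4 and Des, while the defining genes Rgs5 and Myh11 were at most at 1.25 and 3.23 CPM. The 11 myofibre markers summed to 147 to 213 CPM and 114 to 176 CPM in these groups. The part of these cells in the change of Cryab was not tested.

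Hspb1 (HSP27) was at 30.2, 29.1, 36.5 and 31.9 CPM after PBS at 4 h and at 79.9, 33.6, 26.01 and 33.0 CPM after CGRP. Only replicate 1 was above the PBS range. The log2 fold change of 0.44 ± 0.25 (adjusted p = 0.261) was −0.03 without it, and 0.05 ± 0.26 at 8 h. Hspb8, the partner of BAG3, had the highest level per length of this class (146 CPM per kb) and gave 0.31 ± 0.12 (adjusted p = 0.0947) and 0.21 ± 0.12.

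Of the factors, Hsf1, the master regulator of the heat shock response (chr15:76477422-76501913), was at 50.7, 52.1, 49.2 and 54.6 CPM after PBS at 4 h and at 85.1, 59.4, 54.4 and 69.2 CPM after CGRP. It rose by 0.38 ± 0.12 (adjusted p = 0.0382), with replicate 3 inside the PBS range. This call was the least stable of those at 4 h: it was lost without CGRP replicate 1 (0.26, adjusted p = 0.169), in 4 of the 7 other fits that left out 1 library, and with upper-quartile scaling (0.33, adjusted p = 0.0604). It was also lost when edgeR fitted only the libraries compared (0.37, adjusted p = 0.0644) and with the replicate number as a block (0.37, adjusted p = 0.0574). At 8 h the log2 fold change was 0.03 ± 0.12. Hsf2 gave 0.10 ± 0.15 and −0.08 ± 0.15 and was not called.

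Of 10 other genes listed as HSF1 targets, Ier5 rose at 4 h (1.18 ± 0.35, adjusted p = 0.0238) from a low level of 2.80 ± 1.75 CPM. Sqstm1, the autophagy receptor p62, fell (−0.39 ± 0.08, adjusted p = 0.0017). At 8 h Cacybp and Vcp rose, by 0.54 ± 0.16 and 0.27 ± 0.08, and Vcp also missed the threshold without CGRP 8 h replicate 1 (0.20). These counts of 1 higher and 1 lower at 4 h and 2 higher at 8 h stand against 7.84%, 8.37% and 5% of all genes. Among the 15 ER chaperones, which answer to the unfolded protein response, edgeR called 0 at either time, with 3 at 4 h and 0 at 8 h at an unadjusted p under 0.05. DESeq2 called 1 higher at 4 h and 0 at 8 h. The smallest p at 4 h were those of Dnajb9 (0.40 ± 0.14, adjusted p = 0.0649) and Hyou1 (0.95 ± 0.34, adjusted p = 0.0734). Without CGRP 4 h replicate 1 they were 0.16 and 0.38 (adjusted p = 0.334 and 0.248).

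**Figure D2:**
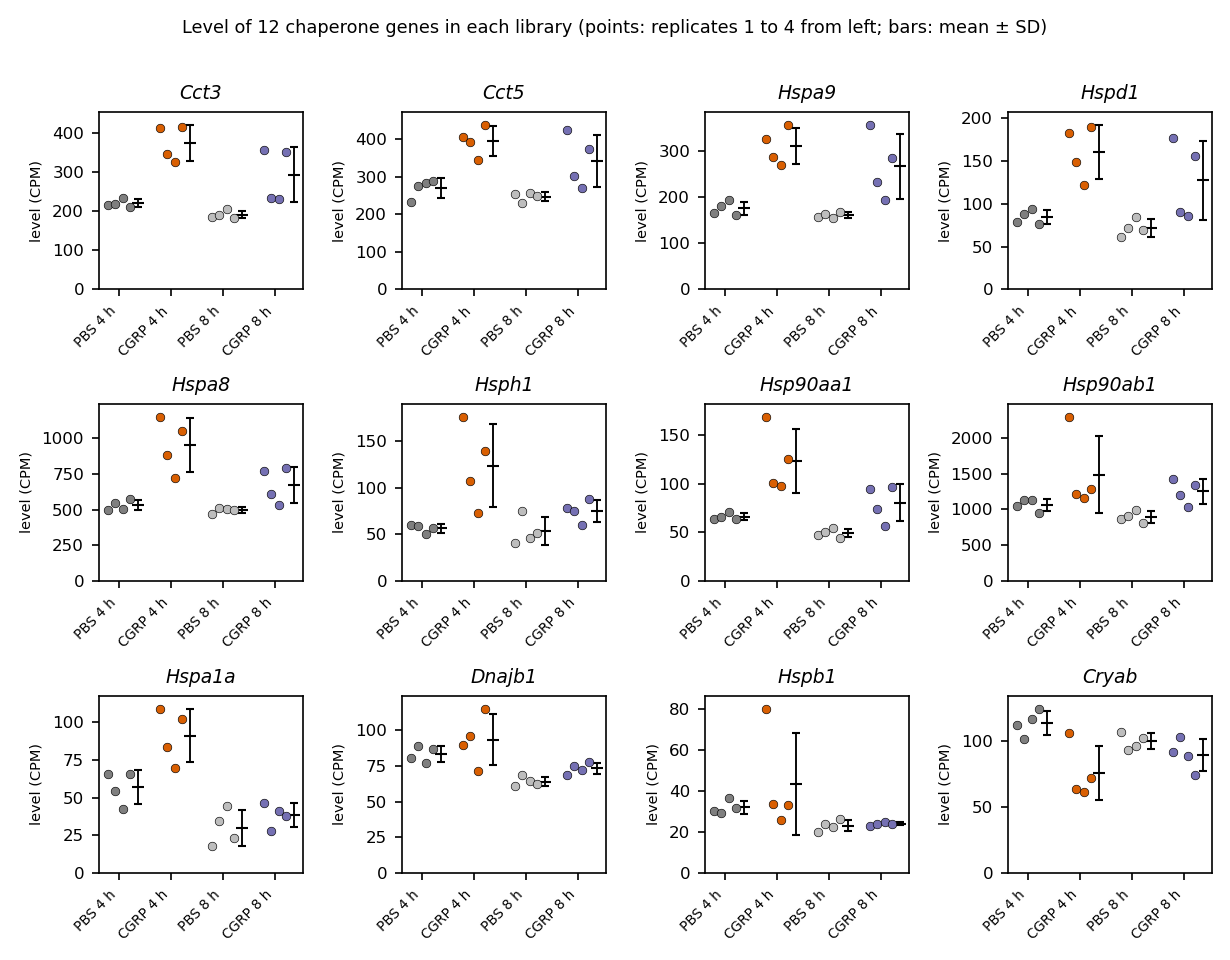
Level in CPM (linear axes from 0) of 12 genes in each of the 16 libraries, by group, with points for replicates 1 to 4 from left to right and bars for mean ± SD. Cct3, Cct5, Hspa9, Hspd1 and Hspa8 lie above their PBS groups at both times, whereas Hsp90ab1 and Hspb1 show 1 high point in CGRP 4 h, at 2289 and 79.9 CPM.

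The members varied together among replicates of 1 group. In CGRP 4 h, replicate 3 was the lowest library in 27 of 35 members, and replicates 1 and 4 were the highest in 17 and 15. In CGRP 8 h, replicate 3 was the lowest in 22, and replicates 1 and 4 were the highest in 15 and 12. In PBS 4 h and PBS 8 h, replicate 3 was the highest in 19 and 18 members, and replicate 4 the lowest in 15 and 14. The same numbers were thus high or low at both times of a treatment for these genes. The median log2 ratio of a library to the mean of the other 3 was 0.24, −0.14, −0.36 and 0.19 for replicates 1 to 4 of CGRP 4 h and 0.19, −0.14, −0.30 and 0.12 for those of CGRP 8 h. After PBS it was −0.09, 0.04, 0.12 and −0.08 at 4 h and −0.05, 0.05, 0.10 and −0.08 at 8 h. The labels do not say that a number marks a shared day or batch, and the part of such a batch was not tested. The spread of CGRP 4 h differed between classes: for the 7 CCT subunits together it spanned 1902 to 2471 CPM, whereas for HSP90 and its cochaperones it spanned 1660 to 3220 CPM. The corresponding PBS 4 h sums were 1460 to 1655 and 1361 to 1629 CPM. All CGRP 4 h libraries thus lay above the PBS range in both classes, the lowest HSP90 sum only narrowly.

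**Figure D3:**
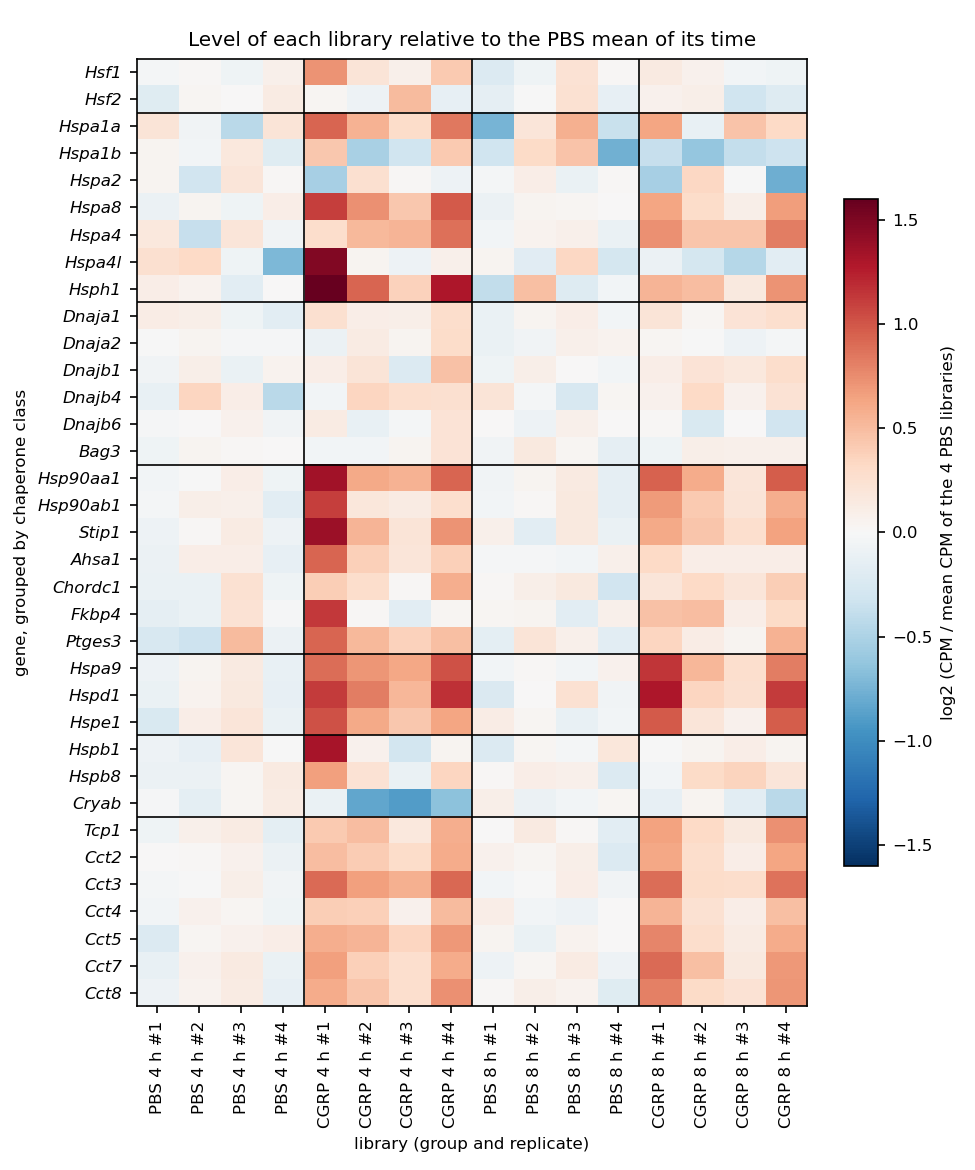
Log2 ratio of each library's CPM to the mean of the 4 PBS libraries of the same time, for the 35 genes by class (rows) in 16 libraries (columns), red above and blue below that mean. The CCT and mitochondrial rows are red in all 8 CGRP columns to differing degrees, and the first CGRP 4 h column is darker than its neighbours in Hsp90ab1, Fkbp4, Hspa4l and Hspb1.

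The effect of CGRP was then compared between the times. For the difference of the effects, taken as 8 h minus 4 h, edgeR called 0 of 35 genes in either direction, against 0.695% of all genes higher and 0.423% lower. At an unadjusted p under 0.05 there was 1 in each direction, Cryab higher (0.42 ± 0.19) and Hspa8 lower (−0.39 ± 0.18), and DESeq2 called 0. The 35 differences spanned −0.80 (Hspa4l) to 0.42 (Cryab) with a median of −0.09. Those of the CCT subunits were near 0, from −0.15 to 0.10. In the main fit 6 genes were called at 4 h and not at 8 h. Their differences were −0.34 ± 0.17 (Hsf1), −0.64 ± 0.33 (Hsph1), −0.28 ± 0.25 (Stip1), −0.34 ± 0.17 (Ahsa1), −0.32 ± 0.24 (Ptges3) and 0.42 ± 0.19 (Cryab), all with adjusted p of 0.302 or more. Without CGRP 4 h replicate 1 they were −0.21 (Hsf1), −0.43 (Hsph1), −0.01 (Stip1), −0.16 (Ahsa1), −0.19 (Ptges3) and 0.63 (Cryab), and that of Hspa4l was −0.27. An effect confined to 4 h was therefore not shown for any of them. The edgeR difference of Cryab passed the threshold when CGRP 4 h replicate 1 was left out (adjusted p = 0.0467). Such a difference does not show that an effect was absent at 8 h.

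Within a treatment, levels at 8 h were set against those at 4 h. These contrasts share libraries with the effects above. After CGRP, 6 of 35 genes fell and 0 rose, against 3.05% and 4.2% of all genes. The median log2 fold change was −0.25, with 32 of 35 below 0. After PBS, 0 genes were called in either direction by edgeR, against 0.265% of all genes higher and 0.251% lower, with a median of −0.14 and 29 of 35 below 0. There, 5 members were lower and 0 higher at an unadjusted p under 0.05, and DESeq2 called 1 lower (Hspa1a).

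The 6 genes that fell between 4 h and 8 h after CGRP included the stress-inducible HSP70 genes Hspa1a and Hspa1b. Hspa1a fell by 1.25 ± 0.25 on the log2 scale (adjusted p = 0.00573) from a range of 69.7 to 109 CPM to one of 27.8 to 46.7 CPM. After PBS its log2 fold change over time was −0.93 ± 0.25 (adjusted p = 0.117), from 42.2 to 65.8 CPM down to 17.9 to 44.7 CPM. The direction was thus shared by the controls, and the test of the difference gave −0.32 ± 0.35 (adjusted p = 0.744). Hspa1b gave −1.22 ± 0.29 after CGRP (adjusted p = 0.0121) and −0.74 ± 0.29 after PBS.

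Hspb1 fell by 0.85 ± 0.25 after CGRP (adjusted p = 0.0489), but by 0.37 without CGRP 4 h replicate 1 (adjusted p = 0.139), and gave −0.46 ± 0.26 after PBS. Hsp90aa1 fell by 0.62 ± 0.16 after CGRP (adjusted p = 0.025), with −0.43 ± 0.17 after PBS. Ahsa1 fell by 0.56 ± 0.12 (adjusted p = 0.00396), with −0.23 ± 0.12 after PBS. Hspa8 fell by 0.49 ± 0.13 (adjusted p = 0.0219), with −0.10 ± 0.13 after PBS. None of the 6 differed between the treatments in the test of the difference. The CCT subunits had log2 fold changes over time of −0.35 to −0.04 after CGRP and −0.20 to −0.06 after PBS, none called. Without CGRP 4 h replicate 1 the count of 6 became 2 and Cryab was called higher. Hspa1a (−1.15) and Ahsa1 (−0.39) were still called, and Hspa1b (−1.07, adjusted p = 0.0541), Hspa8 (−0.39, adjusted p = 0.0957) and Hsp90aa1 (−0.43, adjusted p = 0.0966) missed the threshold, as did Hspb1. The count was 10 without CGRP 4 h replicate 3. It was 3 without CGRP 4 h replicate 4, CGRP 8 h replicate 2 or CGRP 8 h replicate 3.

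**Figure D4:**
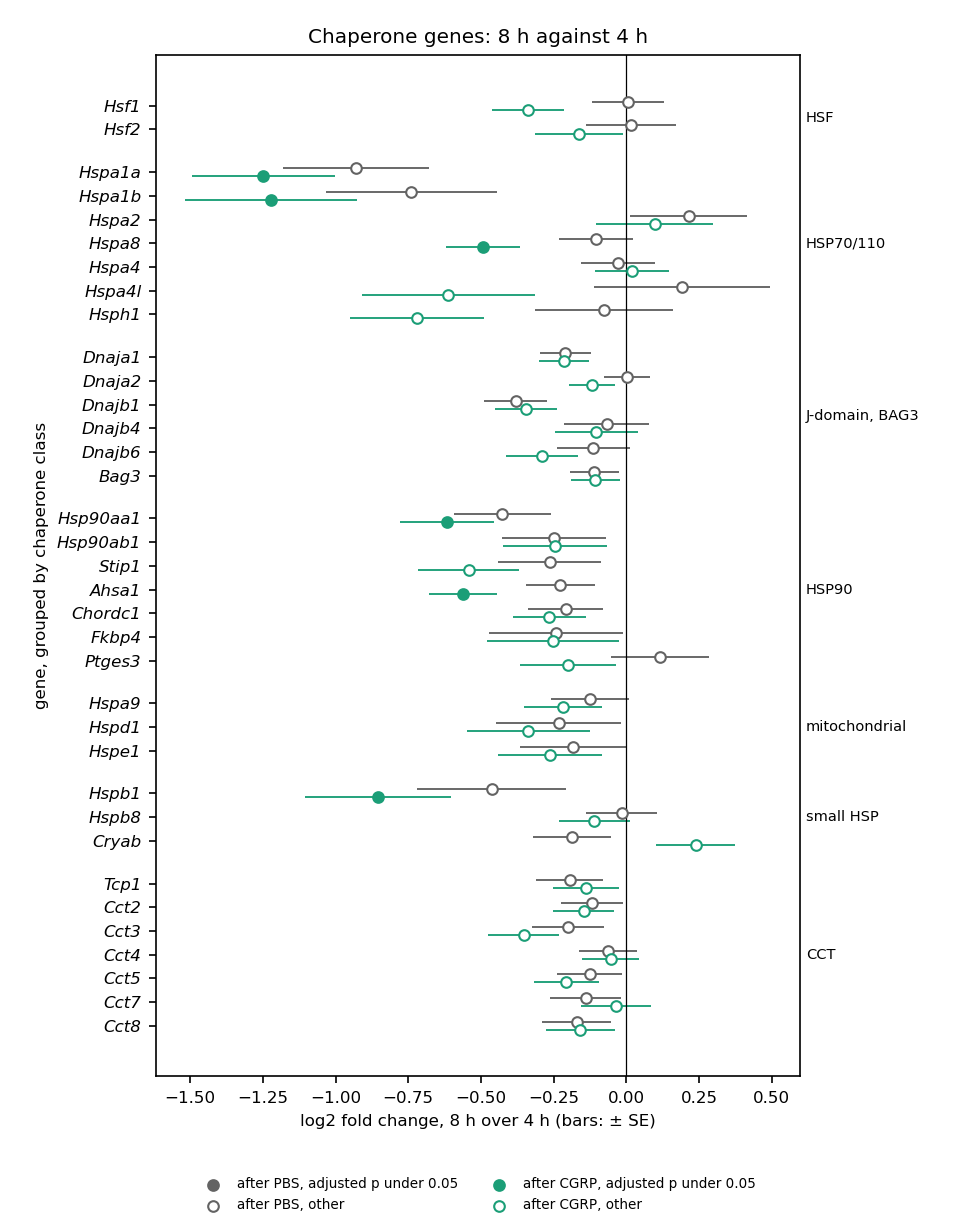
Log2 fold change of 8 h over 4 h for the 35 genes by class, after PBS (grey) and after CGRP (green), with bars for ± SE and filled points at an adjusted p under 0.05. The 6 filled points are all after CGRP and below 0, from −1.25 (Hspa1a) to −0.49 (Hspa8), and the grey points of Hspa1a and Hspa1b are also far below 0.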

How the data were processed

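Per the labels' protocols, each of the 16 libraries started from 1000 sorted cells, with oligo(dT) priming, PCR amplification and Nextera XT, so strand is not marked and reads are not independent molecules. The deposited table holds unnormalised counts of reads for each gene, which the authors made with STAR 2.5.4 on mm10 and featureCounts, per the submitters' processing notes. For the annotation and for multimapping reads, the settings are not given in these sources. Groups were taken from the labels. No 2 replicates were the same library: their counts differed by 6.52 to 22.7 times the sampling noise (chi-square per degree of freedom, 24 pairs).

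Counts were fitted with edgeR 4.0.16 in R 4.3.3 (filterByExpr, TMM, robust quasi-likelihood, 1 mean per group, 12 residual degrees of freedom, biological coefficient of variation 17.4%). The two-sided p-values were adjusted by Benjamini-Hochberg over all 13949 genes. Calls, written as rose or fell, needed an adjusted p under 0.05. Errors of log2 fold changes are SE. Alternatives were DESeq2 1.42.0, other scalings and filters, fits of only the libraries compared, a replicate block and each library left out. The count model was tested on simulated data. Positions and exon lengths (all annotated exons merged) are from GENCODE M21, promoter windows from RefSeq.

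The members and all lists were chosen with earlier results of these data known. Named were all members called in a contrast, both factors, in each class the 2 members with the highest mean level and the 1 with the smallest p at 4 h, and of each other list up to 4 called genes with the smallest p, or up to 2 where none was called. Other members, such as Dnajb1, Hspa4l and Chordc1, were described after their values were seen.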

Additional observations from a re-analysis of the deposited data

Results flagged for a closer look

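In 7 of the 140 sets of 4 replicates (35 genes in 4 groups) the highest or lowest library stood apart from the other 3 by Dixon's test at its 95% level, and chance alone flags about 5% of such sets. Of the 7, 3 were in CGRP 4 h replicate 1: Hsp90ab1 at 2289 CPM, Fkbp4 at 243 CPM and Hspa4l at 34.1 CPM, each the highest of its group. In CGRP 8 h, Ahsa1 was highest in replicate 1 at 112 CPM, Bag3 was lowest in replicate 1 at 117 CPM, and Hspa1b was lowest in replicate 2 at 2.37 CPM. In PBS 4 h, Chordc1 was highest in replicate 3 at 47.4 CPM. No member's effect of CGRP differed between 4 h and 8 h by the test of the difference.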

How the results depend on the processing

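Of the 19 calls at 4 h, 18 held in all 7 alternatives of scaling, tool, filter, samples fitted and block (all but Hsf1), and 15 held when any 1 library was left out. Of the 13 calls at 8 h, 11 and 5 did. The count of members that rose at 8 h was 2 to 13 over fits that left out 1 library, or replicate 1 of all 4 groups, a setting chosen after seeing the data. Under the same settings the 8 h against 4 h count of members that fell after CGRP was 2 to 10, the count that rose was 0 to 1, and the count of members with a higher effect at 8 h than at 4 h was 0 to 1. Fewer samples lower the power of these fits. Members that fell after CGRP numbered 3 when only the libraries compared were fitted. Members lower at 8 h after PBS numbered 1 with DESeq2 and 1 with no filter. Values near 0 changed sign. At 8 h, Hsf1 was −0.0070 with upper-quartile scaling and Dnaja2 was 0.0017 with no filter. With 1 library left out, log2 fold changes at 4 h ranged from −0.066 to 0.23 for Hspa1b, −0.17 to 0.093 for Hspa2, −0.020 to 0.51 for Fkbp4, −0.031 to 0.63 for Hspb1, −0.044 to 0.18 for Hsf2 and −0.0066 to 0.093 for Bag3. At 8 h they ranged from −0.024 to 0.13 for Hsf1, −0.13 to 0.025 for Hsf2, −0.042 to 0.019 for Dnaja2 and −0.0056 to 0.13 for Hspb1, and the difference of effects from −0.57 to 0.091 for Hspb1. Without replicate 1 of all 4 groups the 4 h values were −0.050 for Hspa1b, 0.11 for Hspa2, −0.062 for Fkbp4 and −0.054 for Hspb1, the 8 h value of Hsf1 was −0.076 and the difference of effects of Hspb1 was 0.057. The cause was not tested.

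Deviations of same-numbered replicates of different groups had correlations of −0.16 to 0.15 (median 0.00, 24 pairs), over genes above a minimum mean level. Within PBS, the 4 h and 8 h libraries of the same number correlated at 0.082, 0.088, 0.050 and 0.13 for replicates 1 to 4. Unlike numbers gave −0.11 to 0.049. Within CGRP the same-numbered values were −0.078, −0.029, 0.059 and 0.13, and unlike numbers gave −0.19 to 0.15. The numbers were not taken to pair the samples, although the members' own medians were alike by number within a treatment. The part of a day or batch shared by number was not tested. With the number as a replicate block, 2167 genes in place of 2262 were called at 4 h and 1100 in place of 1210 at 8 h, and Hsf1 at 4 h (0.37), Hspd1 at 8 h (0.79) and Hspb1 over time after CGRP (−0.79) missed the threshold.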

Other observations

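Proteasome subunits, which degrade proteins that chaperones fail to fold, gave more calls at 8 h than at 4 h. Of 31 tested, 5 rose at 4 h and 19 at 8 h, against 7.84% and 5% of all genes, and 0 fell at either time in edgeR or DESeq2, with 0 lower at an unadjusted p under 0.05. With 1 library left out the 8 h count was 8 (without CGRP replicate 1) to 21 (without CGRP replicate 3), and the 4 h count 2 to 9. All 31 log2 fold changes were above 0 at 8 h, with a median of 0.32, against 27 of 31 and a median of 0.15 at 4 h. Psmd14, the deubiquitinase of the proteasome lid, rose by 0.49 ± 0.11 at 4 h and by 0.74 ± 0.11 at 8 h. Psmb3, a core subunit, was at 59.7 ± 3.65 and 60.2 ± 4.69 CPM (mean ± SD, n = 4) after PBS and CGRP at 4 h, and at 53.0 ± 2.65 and 74.1 ± 4.14 CPM at 8 h. The difference between the times was called for 0 of the 31 in edgeR (5 higher and 0 lower at an unadjusted p under 0.05) and for 1 in DESeq2, with 0.47 ± 0.13 for Psmb3 (adjusted p = 0.0734).

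Of 21 immediate early genes, which cell isolation can also induce, 7 fell between 4 h and 8 h after CGRP, against 3.05% of all genes. Atf3 (−1.74 ± 0.17) and Socs3 (−1.06 ± 0.17) were among the 7. After PBS, edgeR called 0 of the 21 lower, against 0.251% of all genes, although 18 log2 fold changes were below 0. There, 4 were lower at an unadjusted p under 0.05 and DESeq2 called 3 lower. For the difference of the effects, 8 h minus 4 h, edgeR called 1 lower, against 0.423% of all genes. At 4 h, 3 rose with CGRP (Socs3, Atf3 and Zfp36) and 1 fell (Klf6), against 7.84% and 8.37% of all genes. Socs3 also rose at 8 h. Without CGRP replicate 1 of the respective time, Zfp36 (0.46) and Klf6 (−0.18) at 4 h and Socs3 (0.54) at 8 h missed the threshold. These genes summed to 4311 to 5004 CPM in CGRP 4 h and 3449 to 4872 CPM in PBS 4 h, and to 3009 to 4583 CPM and 3236 to 3458 CPM at 8 h. Their part in the chaperone changes was not tested.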
